A study of Mus musculus with 156 samples.

Results

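The genes described here are 10 transcriptional targets of p53, chosen by name from the 40914 genes of the deposited tables: Cdkn1a, Mdm2, Plk2, Aen, Ccng1, Trp53inp1, Phlda3, Zmat3, Bax and Bbc3. All 10 passed the filter on low counts, among 17565 genes tested in the long time course and 18009 in the short one. RNA was measured by poly(A) RNA-seq in mouse embryonic stem cells of 4 lines. Firre is a long noncoding RNA. A Firre knockout (KO) line carrying Firre as a transgene that doxycycline switches on was set against a KO control line, and a wild-type (WT) line with such a transgene against a WT control line. The long course held 0, 720, 1440, 2880 and 5760 min of doxycycline with 3 replicates per group (60 libraries), and the short course held 12 times from 0 to 330 min at steps of 30 min with 2 replicates per group (96 libraries). All 4 lines received doxycycline and all were grown with serum, LIF, a MEK inhibitor and a GSK3 inhibitor, so in the control lines doxycycline and time in culture cannot be told apart. Each genotype was 1 line, and the labels used here give neither the promoter or cassette of the transgene nor whether a line is a clone, so a difference between lines may be one between clones.

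p53 is a transcription factor that is kept at a low level by the ubiquitin ligase Mdm2 and is stabilised by DNA damage and other stress. It then raises transcription of genes that halt the cell cycle, repair DNA or start apoptosis, and of Mdm2 itself, which closes a negative feedback loop. Mouse embryonic stem cells are known for abundant Trp53 mRNA and for a short G1 phase, and p53 activity is set largely at the level of the protein, which RNA-seq does not measure.

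Positions are those of GENCODE M21 on mm10, and all 10 genes are protein coding. The feedback arm is Mdm2 (ENSMUSG00000020184.15, chr10:117688875-117710758, minus strand). The cell-cycle arm holds Cdkn1a (ENSMUSG00000023067.14, chr17:29090976-29100727, plus strand), which encodes the cyclin-dependent kinase inhibitor p21. It also holds Ccng1 (chr11:40748552-40755311, minus strand), which encodes cyclin G1, and Plk2 (chr13:110395046-110400844, plus strand), which encodes a polo-like kinase. The death arm holds Bax (chr7:45461697-45466898, minus strand), a pore-forming member of the BCL2 family, and Bbc3 (chr7:16308393-16318205, plus strand), which encodes the BH3-only protein PUMA. Aen (chr7:78895854-78911209, plus strand) encodes a nuclease induced in apoptosis, and Trp53inp1 (chr4:11156431-11174379, plus strand) encodes a stress-induced p53-interacting protein. Phlda3 (chr1:135766119-135769136, plus strand) encodes a pleckstrin-homology repressor of Akt, and Zmat3 (chr3:32334792-32366014, minus strand) encodes a zinc-finger RNA-binding protein.

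p53 can act through sites near the start of its targets, so the upstream windows are shown of Cdkn1a, Mdm2 and Plk2, whose responses differed between the backgrounds, and of Ccng1, whose direction in KO cells ran against the others. Sites outside such windows, as in introns, were not searched for any gene. RefSeq windows on GRCm38.p6 (250 bases before to 50 after a start) were found for 8 of the 10 members, 12 windows in all, and not for Trp53inp1 and Zmat3. Capitals mark matches, on either strand, to the 10-base p53 half-site consensus or to a 20-base site made of a pair of half-sites end to end with at most 3 mismatches. The coordinates are chr17:29090729-29091028 (Cdkn1a, plus strand), chr10:117710709-117711008 (Mdm2, minus strand), chr11:40755237-40755536 (Ccng1, minus strand) and chr13:110394794-110395093 (Plk2, plus strand).
Cdkn1a: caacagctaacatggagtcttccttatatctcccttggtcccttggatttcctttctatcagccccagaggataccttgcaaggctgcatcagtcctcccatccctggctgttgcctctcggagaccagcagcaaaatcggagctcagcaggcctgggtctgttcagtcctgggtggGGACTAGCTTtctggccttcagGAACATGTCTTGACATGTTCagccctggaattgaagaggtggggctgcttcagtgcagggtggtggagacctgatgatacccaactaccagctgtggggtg
Mdm2: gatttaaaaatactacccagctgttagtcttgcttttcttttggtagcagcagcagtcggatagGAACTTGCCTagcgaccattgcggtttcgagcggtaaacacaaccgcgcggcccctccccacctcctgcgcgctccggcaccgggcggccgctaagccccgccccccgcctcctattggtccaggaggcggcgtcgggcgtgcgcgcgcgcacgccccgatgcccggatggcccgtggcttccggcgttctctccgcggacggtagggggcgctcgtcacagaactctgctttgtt
Ccng1: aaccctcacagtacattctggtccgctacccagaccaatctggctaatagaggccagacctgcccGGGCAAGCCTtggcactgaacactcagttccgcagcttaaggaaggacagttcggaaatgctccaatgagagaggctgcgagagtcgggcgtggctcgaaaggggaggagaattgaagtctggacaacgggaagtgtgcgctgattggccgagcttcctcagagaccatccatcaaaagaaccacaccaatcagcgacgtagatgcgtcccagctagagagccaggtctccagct
Plk2: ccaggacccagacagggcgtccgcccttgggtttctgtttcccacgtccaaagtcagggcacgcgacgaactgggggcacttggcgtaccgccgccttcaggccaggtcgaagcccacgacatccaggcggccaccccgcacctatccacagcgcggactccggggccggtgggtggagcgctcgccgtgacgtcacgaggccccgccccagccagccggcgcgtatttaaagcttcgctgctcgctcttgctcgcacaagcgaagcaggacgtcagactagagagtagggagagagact
The Cdkn1a window held the full-length match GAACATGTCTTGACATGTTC with 1 mismatch, beginning 51 bases upstream of that start. Aen held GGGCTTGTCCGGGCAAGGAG and Bbc3 held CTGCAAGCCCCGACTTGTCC, each with 3 mismatches. Another Cdkn1a window (chr17:29093519-29093818) and 2 of the 3 Bbc3 windows held no match, and both Aen windows, which overlap, held that full site. By window, 6 of the 12 held a half-site (those of Cdkn1a, Aen, Bax, Mdm2 and Ccng1) and 4 a full site, while among all 32851 windows 8.36% held a half-site and 0.572% a full site. The Plk2 window held neither, which says only that these letters are not in this window.

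Total counts per library ran between 18961799 and 47948630 in the long course and between 19013652 and 37195019 in the short course. All 8 embryonic stem cell markers averaged at least 1 TPM (transcript abundance scaled for transcript length and depth) in every line, with a summed level of 6461 to 9851 TPM over libraries. The summed level was 1.39 to 5.27 TPM for 8 fibroblast or feeder markers, 2.08 to 7.24 TPM for 6 of primitive endoderm, 4.64 to 8.42 TPM for 5 of neuroectoderm and 5.08 to 12.5 TPM for 5 of mesendoderm. It was 18.1 to 35.6 TPM for 6 trophoblast markers, of which 3 or 4 averaged at least 1 TPM in each line. Firre itself ranged from 0.235 to 1.07 TPM in KO control libraries of the long course, against 21.3 to 31.3 TPM in WT control libraries. In KO transgene cells it had 50.2, 47.3 and 50.8 TPM at 720 min, against 0.588, 1.03 and 1.07 TPM at 0 min. In WT transgene cells it had 45.9, 45.8 and 46.8 TPM already at 0 min, against 24.7, 24.3 and 23.6 TPM in WT control cells. On the count scale that difference was smaller, with a log2 fold change of Firre of 0.31 ± 0.04 (edgeR adjusted p = 6.68e-08), and in the short course it was 0.02 ± 0.10 and did not pass. The 2 scales differed there as well. Every WT transgene library of the short course, those of 0 min included, had at least 41.4 TPM of Firre, against at most 32.0 TPM in WT control libraries. The labels do not say what a replicate is, so p-values measure only the spread between these samples.

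The 10 genes differed widely in level. By their median over the 60 libraries of the long course, on the TPM scale, the order was Bax (315 TPM), Ccng1 (164.5 TPM), Trp53inp1 (99.2 TPM), Cdkn1a (94.97 TPM), Mdm2 (80.9 TPM), Aen (67.1 TPM), Phlda3 (41.0 TPM), Zmat3 (20.7 TPM), Plk2 (19.6 TPM) and Bbc3 (15.2 TPM). The ranges over libraries of neighbours in this order overlapped from Trp53inp1 down to Bbc3, and that of Bax (257 to 362 TPM) lay above all others. Trp53 mRNA had a median of 248 TPM. Within a gene the groups moved little: the highest of 20 group means was 2.08 times the lowest for Plk2, 1.99 times for Phlda3 and 1.66 times for Cdkn1a, and at most 1.51 times for the other 7 members.

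Fold changes below are edgeR log2 values with their standard error, from counts scaled by TMM (trimmed mean of M values), and values per library are counts scaled to library size (CPM) in the same way, 1 scale for each course. A gene passed a test at an adjusted p under 0.05 over all genes tested. In the long course TPM of the members varied most between replicates in 5 groups, the transgene lines at 720 and 1440 min and the WT control at 1440 min. There the median coefficient of variation over the members was 2.48 to 3.70% in CPM and 7.11 to 8.82% in TPM, and in the other groups it was 1.38 to 5.22% in CPM and 2.50 to 5.4% in TPM. WT transgene cells at 1440 min, for example, had 133, 105 and 137 TPM of Cdkn1a but 160, 146 and 167 CPM.

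**Figure D1:**
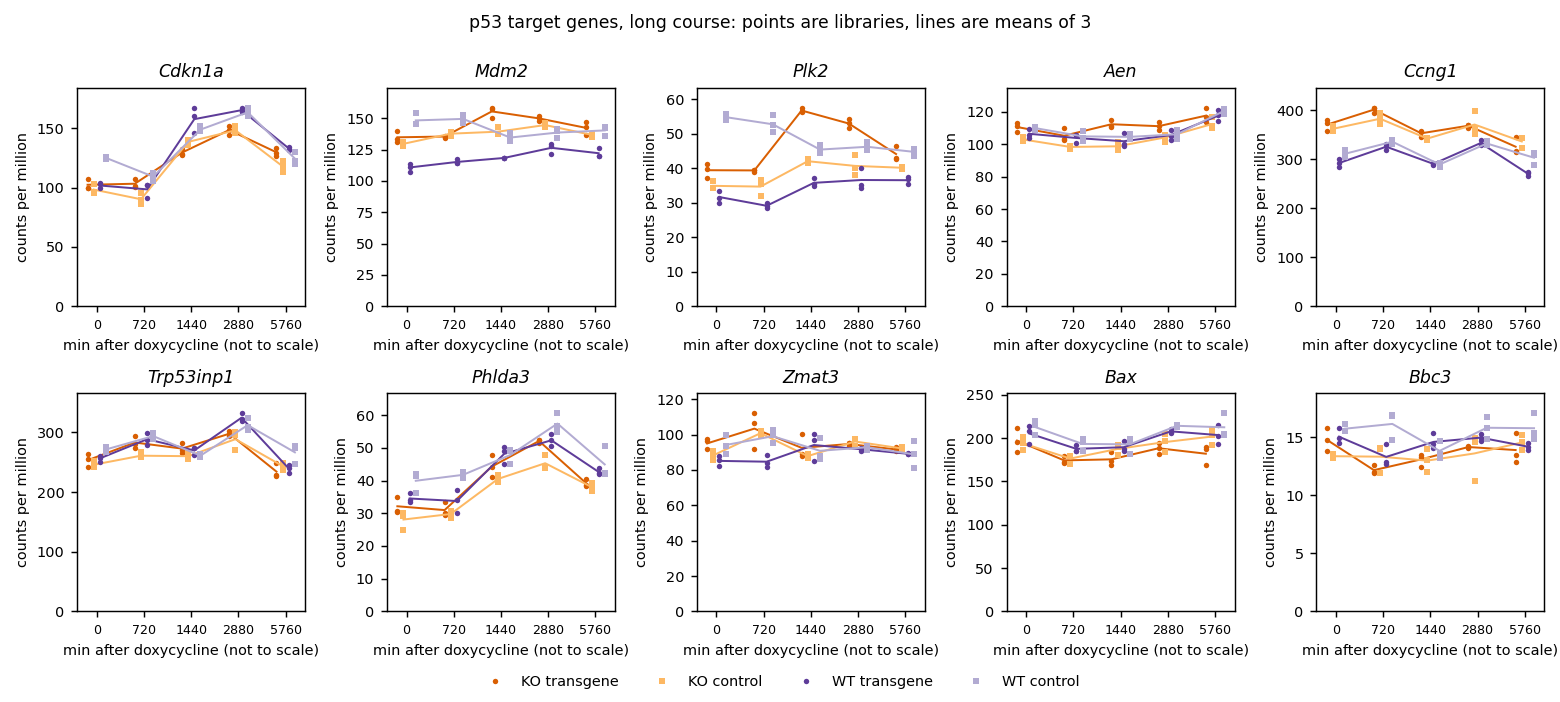
CPM of the 10 genes (vertical axes, from 0) in the long course by time of doxycycline in min (horizontal axes, not to scale), with points for libraries, lines for means of 3, and the 4 lines side by side. Plk2 and Mdm2 in WT transgene cells lie below WT control cells at every time, and Cdkn1a and Phlda3 are higher at 2880 min than at 0 min in all 4 lines.

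Before doxycycline, KO control cells of the long course had less RNA of most of these genes than WT control cells. Of the 10 members 8 were lower, 1 was higher (Ccng1) and 1 did not pass (Zmat3), in a comparison in which 35.1% of all genes tested passed. The median log2 fold change was -0.17 over the members and -0.01 over all genes tested. Plk2 stood lowest: KO control cells had 36.2, 34.2 and 34.2 CPM, against 55.8, 53.9 and 54.7 CPM in WT control cells (log2 fold change -0.65 ± 0.05, edgeR adjusted p = 6.44e-21). Cdkn1a had 103, 96.3 and 95.7 CPM in KO control cells, against 126, 126 and 124 CPM in WT control cells (-0.35 ± 0.04, edgeR adjusted p = 5.16e-12). The groups overlapped for neither gene, and every KO control library lay below every WT control library. In bulk RNA, fewer cells that express a gene and less RNA per cell cannot be told apart.

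Phlda3 had 29.2, 30.1 and 25.0 CPM in KO control cells, against 36.3, 41.4 and 42.1 CPM in WT control cells (-0.50 ± 0.07, edgeR adjusted p = 4.06e-08). The feedback gene Mdm2 was lower by less, with 132, 130 and 128 CPM in KO control cells, against 145, 145 and 155 CPM in WT control cells (-0.19 ± 0.03, edgeR adjusted p = 2.00e-07). Ccng1 went the other way, with 357, 361 and 368 CPM in KO control cells, against 319, 305 and 310 CPM in WT control cells (0.22 ± 0.03, edgeR adjusted p = 2.74e-08). Among the death genes, the log2 fold change was -0.24 ± 0.07 for Bbc3, -0.13 ± 0.05 for Bax, -0.14 ± 0.04 for Trp53inp1 and -0.10 ± 0.03 for Aen, with edgeR adjusted p between 0.000728 and 0.0307. Zmat3 stood at -0.09 ± 0.05 (edgeR adjusted p = 0.187). The calls of Plk2, Cdkn1a, Phlda3, Mdm2, Ccng1 and Trp53inp1 held under all 11 alternative settings, while that of Aen was lost without any of the replicates 1, 2 and 3, that of Bax without replicate 2 or 3 and that of Bbc3 without replicate 2.

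The transgene lines also differed from their controls before doxycycline, and more members passed in the WT background than in the KO background. In WT transgene cells 5 members were lower than in WT control cells, none was higher and 5 did not pass, where 5.94% of all genes tested were lower. Plk2 had 33.5, 31.4 and 30.0 CPM in WT transgene cells at 0 min, against the WT control values given above (-0.80 ± 0.05, edgeR adjusted p = 6.34e-24). Mdm2 had 111, 114 and 107 CPM in WT transgene cells, against 145, 145 and 155 CPM in WT control cells (-0.42 ± 0.03, edgeR adjusted p = 1.18e-18). Both genes were lower there than in KO control cells of the same time, a contrast that was not tested. In the long course the lowest Plk2 and Mdm2 of the 4 lines before doxycycline thus belonged to the line with wild-type Firre and the transgene. Cdkn1a stood at -0.30 ± 0.04 (edgeR adjusted p = 8.26e-09), Phlda3 at -0.21 ± 0.07 and Ccng1 at -0.09 ± 0.03. The calls of Plk2, Mdm2 and Cdkn1a held under all 11 alternatives, that of Phlda3 was lost without replicate 2 or 3, and that of Ccng1 without replicate 1 or 3.

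In the KO background 1 member differed at 0 min, where 1.83% of all genes tested were higher. Plk2 had 41.1, 39.8 and 37.3 CPM in KO transgene cells, against 36.2, 34.2 and 34.2 CPM in KO control cells (0.18 ± 0.05, edgeR adjusted p = 0.0145), a call that was lost when any of the 3 replicates was left out. The other 9 members had log2 fold changes of 0.02 to 0.19 and did not pass. These contrasts and that of KO against WT control cells share control libraries, so their values are set side by side only.

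**Figure D2:**
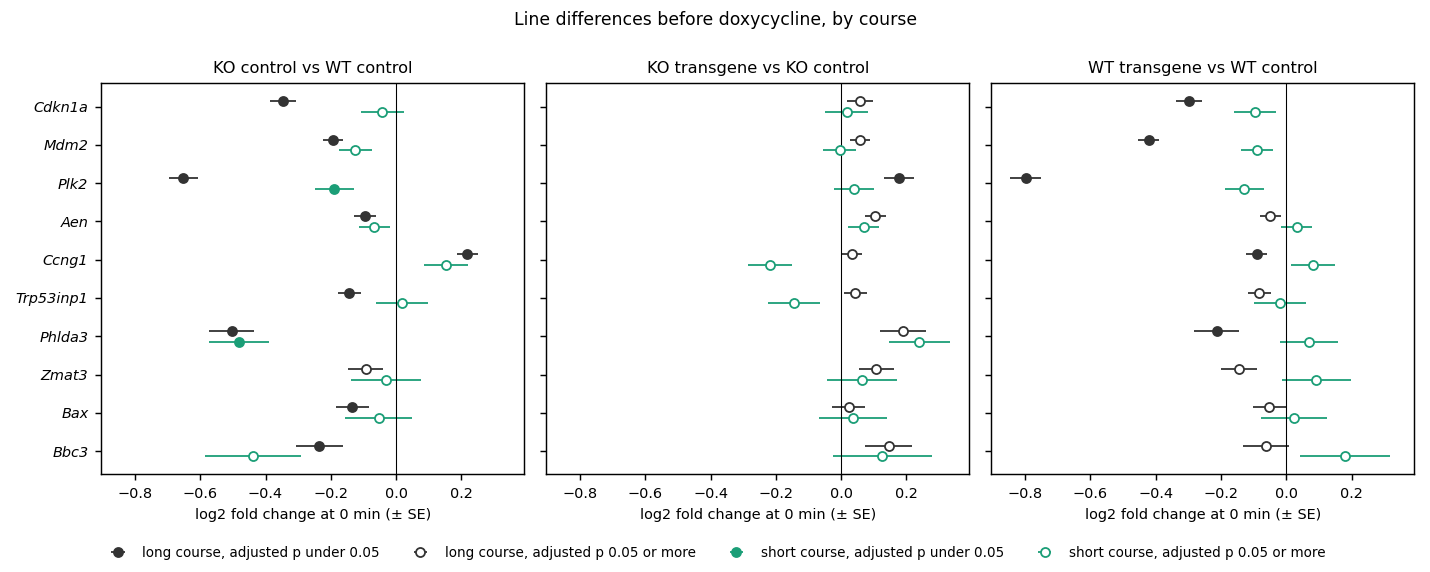
Log2 fold change with its standard error (horizontal axes) of the 10 genes (vertical axis) between lines at 0 min, for the long and the short course; filled points passed at an adjusted p under 0.05. Plk2 and Mdm2 stand at -0.80 and -0.42 between WT transgene and WT control cells in the long course and at -0.13 and -0.09 in the short course.

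The same contrasts in the short course, which is a separate set of libraries with 2 replicates per group, had smaller values for Plk2, Mdm2 and Cdkn1a. Between KO and WT control cells 2 members were lower and 8 did not pass, where 4.1% of all genes tested were lower (1 higher and 1 lower with limma on log2(TPM + 1)). Phlda3 had 35.9 and 44.5 CPM in KO control cells, against 60.5 and 52.1 CPM in WT control cells (-0.48 ± 0.09, edgeR adjusted p = 0.000335). Plk2 had 58.8 and 56.9 CPM in KO control cells, against 64.5 and 67.3 CPM in WT control cells (-0.19 ± 0.06, edgeR adjusted p = 0.0413). Cdkn1a, at -0.04 ± 0.07, did not pass. No member passed between either transgene line and its control, where 0.161% of all genes passed for KO and 2.93% for WT lines, although 2 members of the KO and 1 of the WT comparison had an unadjusted edgeR p under 0.05, and DESeq2 called none either. In the WT background Plk2 stood at -0.13 ± 0.06, Cdkn1a at -0.10 ± 0.07 and Mdm2 at -0.09 ± 0.05, none of which passed. Whether the line differences of the 2 courses differ from each other was not tested, as the courses were fitted apart.

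The response to induction was measured as how far a transgene line moved away from its own 0 min level beyond the movement of the matching control, and all 4 times after 0 min were tested jointly. A gene is counted as risen or fallen by its sign at the time of the largest value. In the WT background (overexpression of Firre) 6 members rose, none fell and 4 did not pass, where 4.16% of all genes tested rose. Given at the time where it was largest, the response of Plk2 was 0.50 ± 0.07 (5760 min, edgeR adjusted p = 5.62e-13). That of Cdkn1a was 0.39 ± 0.05 (5760 min, edgeR adjusted p = 2.16e-08) and that of Mdm2 0.29 ± 0.04 (2880 min, edgeR adjusted p = 2.18e-07). Zmat3 (0.20 ± 0.08), Trp53inp1 (0.14 ± 0.05) and Ccng1 (0.10 ± 0.05) passed with edgeR adjusted p between 0.00607 and 0.0452. The calls of Plk2, Cdkn1a and Mdm2 held under all 11 alternatives, while those of Zmat3, Trp53inp1 and Ccng1 were each lost when replicate 2 was left out. Without replicate 1 Ccng1 passed in the opposite direction (-0.12, edgeR adjusted p = 0.0236). The median over the members was 0.17 and over all genes tested -0.05.

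These responses began in lines that already differed, and the rises brought WT transgene cells toward WT control cells. For Plk2, WT transgene cells had 36.8, 37.3 and 35.4 CPM at 5760 min, against 33.5, 31.4 and 30.0 CPM at 0 min. WT control cells had 45.5, 43.4 and 45.2 CPM at 5760 min, against 55.8, 53.9 and 54.7 CPM at 0 min. More of the response therefore lay in the control, where Plk2 fell by 0.29 on the log2 scale at 5760 min, than in the transgene line. At every time the WT transgene libraries stayed below all WT control libraries, with log2 fold changes between the lines of -0.80, -0.86, -0.34, -0.33 and -0.30 in order of time, all of which passed.

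The difference between the lines also narrowed for Mdm2, at a smaller size, with values of -0.42, -0.38, -0.19, -0.13 and -0.20 at 0, 720, 1440, 2880 and 5760 min. Each passed, and the groups overlapped at none of these times. WT transgene cells had 128, 122 and 130 CPM of Mdm2 at 2880 min, against 140, 134 and 142 CPM in WT control cells. From 0 min to 2880 min Mdm2 in WT control cells moved by -0.10 in CPM and -0.30 in TPM (log2). On the CPM scale more of its response at that time therefore lay in the transgene line, unlike that of Plk2 at 5760 min. Cdkn1a differed in kind: WT transgene cells had 135, 132 and 133 CPM at 5760 min, against 104, 99.3 and 103 CPM at 0 min, while WT control cells had 130, 120 and 123 CPM at 5760 min and 126, 126 and 124 CPM at 0 min. The control thus ended at its starting level (-0.01 on the log2 scale) and the transgene line rose to it, and the difference between the lines did not pass at 1440, 2880 and 5760 min (0.08, 0.02 and 0.10).

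Counted by time, the members that passed after 0 min between WT transgene and WT control cells were all lower in WT transgene cells. They numbered 6 at 720 min, where 9.52% of all genes tested were lower, with Phlda3 (-0.32 ± 0.07), Bbc3 (-0.29 ± 0.07), Zmat3 (-0.23 ± 0.06) and Cdkn1a (-0.16 ± 0.04) beside Plk2 and Mdm2. They numbered 2 at 1440 min (4.62% of all genes), 2 at 2880 min (3.68%) and 4 at 5760 min (9.13%), where Ccng1 (-0.16 ± 0.03) and Trp53inp1 (-0.15 ± 0.04) joined Plk2 and Mdm2. Against 0 min, the response of Plk2, Mdm2 and Cdkn1a passed at 1440, 2880 and 5760 min (1.85%, 2.56% and 8.23% of all genes). That of no member passed at 720 min, where 0.581% of all genes passed.

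**Figure D3:**
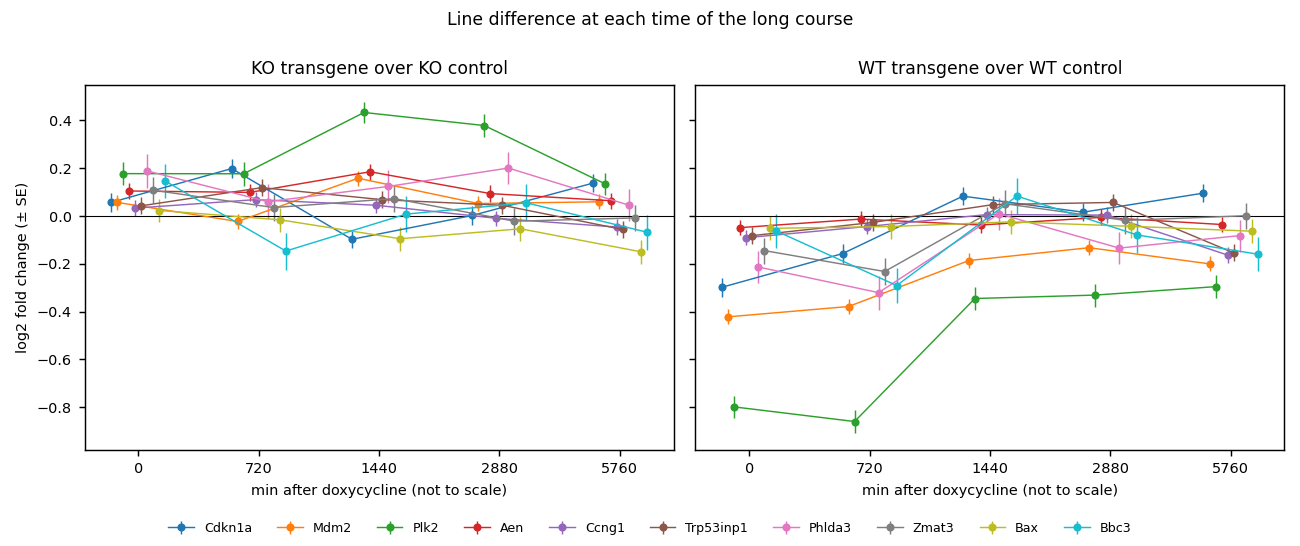
Log2 fold change with its standard error (vertical axis) of transgene over control cells for the 10 genes at each time of the long course in min (horizontal axis, not to scale), in the KO background (left) and the WT background (right). In the WT background Plk2 and Mdm2 stay below 0 throughout, with Plk2 at -0.80 at 0 min and -0.30 at 5760 min, and in the KO background Plk2 stays above 0, with its highest value of 0.43 at 1440 min.

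In the KO background (return of Firre to knockout cells) 3 members responded, Plk2, Mdm2 and Cdkn1a, where 11.5% of all genes passed. With limma on log2(TPM + 1) the calls of all 3 were lost, and the 1 member that passed was Trp53inp1, higher. Plk2 rose by 0.26 ± 0.07 at 1440 min (edgeR adjusted p = 0.000391) and Mdm2 by 0.10 ± 0.04 at 1440 min (edgeR adjusted p = 0.0365). KO transgene cells had 56.4, 56.2 and 57.5 CPM of Plk2 at 1440 min, against 42.6, 41.4 and 42.1 CPM in KO control cells, and the difference between the lines was 0.14 ± 0.05 at 5760 min and 0.18 ± 0.05 at 0 min. Cdkn1a fell by the joint test (-0.15 ± 0.05 at 1440 min, edgeR adjusted p = 0.000304), but its course crossed 0, at 0.14, -0.15, -0.05 and 0.08 in order of time, and no single time passed. Without replicate 2 of the transgene lines at 720 and 1440 min the value of largest size for Cdkn1a turned to 0.16, and the call of Mdm2 was lost without any of the 3 replicates and that of Plk2 without replicate 2. The other 7 members did not pass, with Bbc3 at -0.29 ± 0.11 at 720 min as the value of largest size among them.

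At 5760 min KO transgene cells had 42.7, 46.5 and 43.0 CPM of Plk2, which overlapped the 45.5, 43.4 and 45.2 CPM of WT control cells at that time but lay below all WT control libraries of 0 min. Between KO transgene and KO control cells the members that passed numbered 3 at 720 min, 3 at 1440 min and 2 at 2880 min, all higher in KO transgene cells, where 4.17%, 8.9% and 6.32% of all genes tested were higher (4 higher and 1 lower at 1440 min with limma on log2(TPM + 1)). At 5760 min 2 members were higher and 1 was lower (Bax, -0.15 ± 0.05), where 15.2% of all genes passed. Plk2 was higher at all 4 times (0.18, 0.43, 0.38 and 0.14), with a call that held without any 1 replicate at 1440 and 2880 min but not at 720 and 5760 min.

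The rescue response minus the overexpression response, a direct test of the difference, passed for 3 members, all lower for rescue, where 2.64% of all genes tested were lower. It was -0.54 ± 0.08 at 1440 min for Cdkn1a (edgeR adjusted p = 7.37e-08), -0.54 ± 0.09 at 5760 min for Plk2 (edgeR adjusted p = 1.27e-05) and -0.29 ± 0.06 at 2880 min for Mdm2 (edgeR adjusted p = 0.0086). The calls of Cdkn1a and Plk2 held under all 11 alternatives, and that of Mdm2 was lost without replicate 2 or 3. The same 3 genes were those that differed most at 0 min between WT transgene and WT control cells by adjusted p. The part of the 0 min difference in this value was not tested apart.

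The control lines themselves moved over the long course, without a transgene, as did most of the genes tested. In KO control cells 7 members rose, 2 fell and 1 did not pass, where 59.6% of all genes passed, and in WT control cells 5 rose, 3 fell and 2 did not pass, where 54.8% passed. These counts take the sign at the time of the largest value and depend on the scale: with limma on log2(TPM + 1), 3 members were higher and 3 lower in KO control cells, and 3 higher and 7 lower in WT control cells. Single times could go the other way. Aen, counted as risen at 5760 min, lay above its 0 min mean in 5 of 12 later libraries of KO control and 3 of 12 of WT control cells, and at 1440 min alone 2 members were higher and 5 lower in WT control cells, where 33.4% of all genes passed. Cdkn1a had 152, 146 and 148 CPM in KO control cells at 2880 min, against 103, 96.3 and 95.7 CPM at 0 min (0.59 ± 0.04). In WT control cells it had 161, 164 and 167 CPM at 2880 min, against 126, 126 and 124 CPM at 0 min (0.39 ± 0.04). Phlda3 rose beside it, by 0.68 ± 0.07 in KO control and 0.52 ± 0.07 in WT control cells at 2880 min. Plk2 and Mdm2 rose in KO control cells (0.27 ± 0.05 and 0.16 ± 0.03 at their largest) and fell in WT control cells (-0.29 ± 0.05 and -0.14 ± 0.03).

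The KO to WT differences of Plk2, Mdm2, Cdkn1a and Phlda3 were smaller after 0 min than at 0 min, a change that was not tested. Over the mean of the 4 later times 7 members were lower in KO control cells, 1 was higher and 2 did not pass, where 45.9% of all genes passed (3 lower and 1 higher with limma on log2(TPM + 1)). Plk2 stood at -0.26 ± 0.02 and Cdkn1a at -0.15 ± 0.02, each lower in 12 of 12 libraries than the WT control mean of its time, and Mdm2 at -0.01 ± 0.02 did not pass. Phlda3 (-0.33 ± 0.03) and Ccng1 (0.19 ± 0.02) kept their directions in 12 of 12 libraries.

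Some of these changes over time depended on the scale. On the TPM scale the median over all genes tested moved by up to -0.12 (log2, WT control cells at 2880 min) against -0.004 on the CPM scale. Cdkn1a and Phlda3 were higher at 2880 min than at 0 min on both scales in both controls, and Cdkn1a in WT control cells at 5760 min stood at -0.01 in CPM and -0.12 in TPM. Plk2 in KO control cells at 1440 min was higher on both (0.27 in CPM and 0.19 in TPM), and Plk2 in WT control cells at 2880 min was lower on both (-0.24 in CPM and -0.47 in TPM). The signs differed for Mdm2 in KO control cells at 2880 min (0.16 in CPM, -0.05 in TPM) and for Trp53inp1 in KO (0.23 and -0.11) and WT control cells (0.20 and -0.18), so the direction of these changes depends on the scale. Cdkn1a in KO control cells at 720 min stood at -0.13 in CPM and 0.07 in TPM. At one or more times of the long course the sign differed between the scales for every member but Phlda3 in KO control cells, and for every member but Cdkn1a, Plk2 and Phlda3 in WT control cells. The cause was not tested.

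The short course covered the first 330 min, in which Firre in KO transgene cells reached 419 and 451 TPM at 90 min, against 1.38 and 1.94 TPM at 0 min. In that time 1 of the 10 genes passed for a response in the KO background and none in the WT background, where 1.08% of all genes fell and 0.7% passed in the 2 comparisons, and the difference of the responses passed for none (0.0167%). At an unadjusted edgeR p under 0.05, there were 5 further members in the KO background, none in the WT background and 1 for the difference, and DESeq2 called no member in the WT background or for the difference. The gene that passed was Mdm2, with a mean response of -0.04 ± 0.05 over the 11 times (edgeR adjusted p = 0.0201), a value smaller than its error. In a separate fit with 1 coefficient per line and time its mean was 0.0011 and it did not pass (edgeR adjusted p = 0.134). The values of that fit include 0.12 at 240 min and -0.17 at 300 min. That call was kept under 4 of 9 alternatives. It was lost without either replicate, with limma on log2(TPM + 1) and with only the lines compared. No single time passed for any member, where at most 4.08% (KO, 180 min) and 0.2% (WT, 330 min) of all genes passed. The mean responses of the other members lay between -0.16 and 0.11 in the KO background, and all 10 lay between -0.10 and 0.03 in the WT background, each with a standard error of 0.04 to 0.13.

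In the WT background the lines differed over the later times of the short course. Plk2 and Mdm2 were lower in WT transgene cells, as at every time of the long course. Cdkn1a was lower too, but in the long course only at 0 and 720 min (-0.30 and -0.16). Its later values in the long course lay above 0 and did not pass. Bbc3 and Zmat3, higher in the short course, were lower at 720 min of the long course (-0.29 and -0.23). Over the mean of the 11 times after 0 min, Plk2 was at -0.20 ± 0.02 in WT transgene against WT control cells, lower in 22 of 22 libraries (edgeR adjusted p = 9.30e-15). Mdm2 was at -0.15 ± 0.02, lower in 22 of 22 (edgeR adjusted p = 2.73e-13), and Cdkn1a at -0.16 ± 0.02, lower in 21 of 22 (edgeR adjusted p = 3.29e-10). These 3 were lower and 4 members were higher (Bbc3 0.11, Zmat3 0.10, Bax 0.08 and Aen 0.07), where 40.3% of all genes passed (3 lower and 1 higher with limma on log2(TPM + 1)), while the responses of Plk2, Mdm2 and Cdkn1a to induction (-0.01 ± 0.06, -0.09 ± 0.05 and -0.09 ± 0.05) did not pass. In the KO background Plk2 was higher in KO transgene cells over the same times (0.11 ± 0.02, 20 of 22 libraries) and Cdkn1a lower (-0.11 ± 0.02, 21 of 22), where 12.3% of all genes passed.

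**Figure D4:**
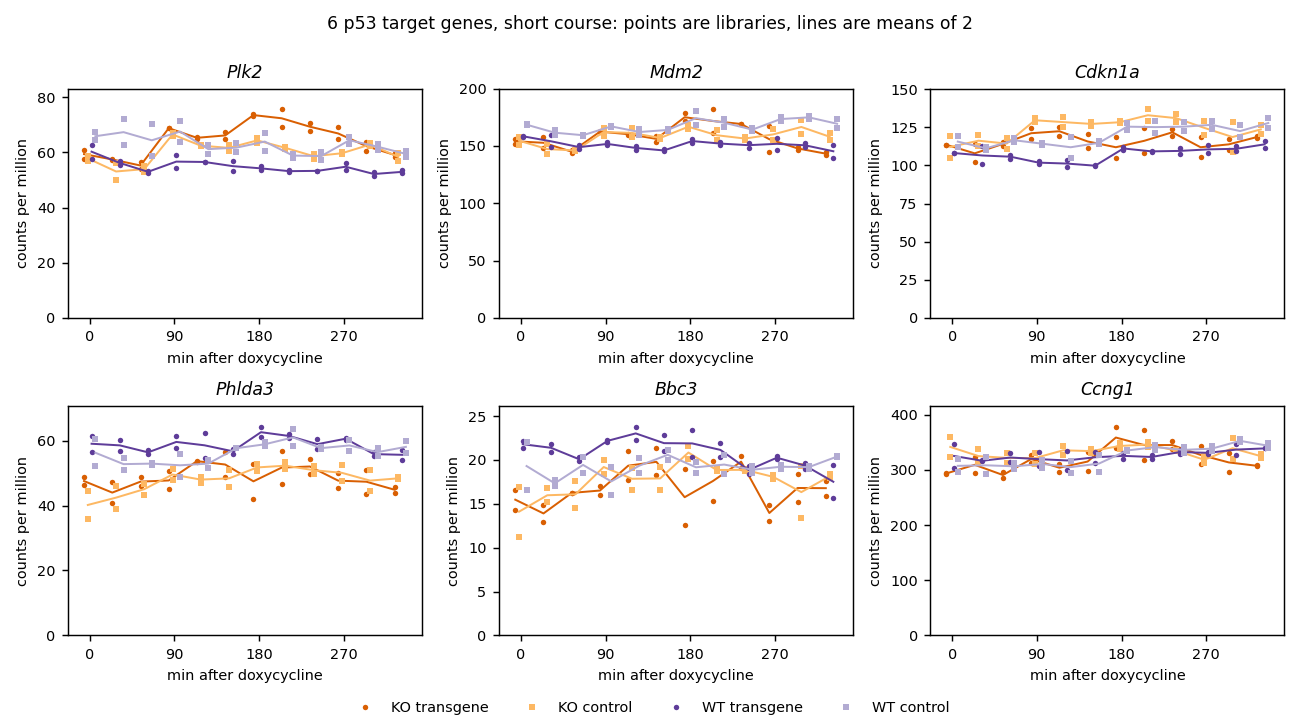
CPM of 6 of the 10 genes (vertical axes, from 0) in the short course by time of doxycycline in min (horizontal axes), with points for libraries and lines for means of 2, slightly offset by line. Plk2, Mdm2 and Cdkn1a in WT transgene cells run below WT control cells, and Plk2 is higher at 90 min than at 60 min in both KO lines.

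Within lines, the short course showed steps shared by transgene and control. Plk2 had 68.8 and 68.8 CPM at 90 min in KO transgene cells, against 53.8 and 56.7 CPM at 60 min, and 67.2 and 65.9 CPM at 90 min in KO control cells, against 52.98 and 54.9 CPM at 60 min. Mdm2 had 163 and 162 CPM at 90 min in KO transgene cells, against 144 and 146 CPM at 60 min, and KO control cells moved likewise. In the WT lines Cdkn1a had 110 and 112 CPM at 180 min in WT transgene cells, against 99.4 and 100.2 CPM at 150 min, and 128 and 123 CPM at 180 min in WT control cells, against 116 and 114 CPM at 150 min. In each of these steps both later libraries lay above both earlier ones. The steps fell at different times in the 2 backgrounds, they were picked after the values were seen and were not tested, and the labels name no batch that would divide the times.

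Across the short course 4 members rose in KO control cells (Bbc3 0.32 ± 0.09, Phlda3 0.26 ± 0.05, Cdkn1a 0.17 ± 0.04 and Plk2 0.16 ± 0.04, mean over the later times), where 7.06% of all genes rose. In WT control cells 3 passed the joint test and had a mean above 0 (Ccng1 0.07 ± 0.04, Cdkn1a 0.06 ± 0.04 and Phlda3 0.04 ± 0.05), where 12.1% of all genes rose. Between KO and WT control cells after 0 min Phlda3 stayed lower in 22 of 22 KO libraries (-0.21 ± 0.03), while Cdkn1a was higher in KO control cells (0.06 ± 0.02) and lower at the later times of the long course, and on the log2(TPM + 1) scale its short-course value was -0.018. In all, 2 members were higher and 3 lower, where 44.1% of all genes passed.

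The regulators of p53 and its other targets were followed as lists. Trp53 mRNA was higher in KO control than in WT control cells at 0 min of the long course, with 425, 418 and 393 CPM against 313, 334 and 313 CPM (0.36 ± 0.04, edgeR adjusted p = 4.58e-14), a direction opposite to that of 8 of the 10 target genes. In the short course Trp53 stood at 0.00 ± 0.06 in that comparison. Of 17 regulators 5 were higher and 7 lower in KO control cells at 0 min of the long course, where, as for all lists in this comparison, 35.1% of all genes passed. Among them were Ppm1d, a phosphatase that restrains p53 (0.19 ± 0.05), and Mdm4, an inhibitor related to Mdm2 (-0.18 ± 0.04). In WT transgene against WT control cells at 0 min, where 13.2% of all genes passed, 2 regulators were higher and 3 lower, with Trp53 at -0.11 ± 0.04, Ppm1d at -0.20 ± 0.05 and Mdm4 at -0.03 ± 0.04.

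Of 10 other p53 targets in cell cycle and growth, none was higher and 6 were lower in KO control cells at 0 min of the long course, with a median of -0.15 against -0.01 over all genes tested. They include Gadd45a, a stress-induced growth arrest gene (-0.62 ± 0.07), the antiproliferative gene Btg2 (-0.31 ± 0.05), Psrc1 (-0.23 ± 0.03) and the sestrin gene Sesn2 (-0.20 ± 0.04). Of 11 other targets in death and receptors, none was higher and 4 were lower: Pmaip1, which encodes the BH3-only protein NOXA (-0.74 ± 0.05), Perp (-0.36 ± 0.08), Pidd1 (-0.33 ± 0.06) and Apaf1, the apoptosome scaffold (-0.23 ± 0.04). Of 11 targets in DNA repair and metabolism 3 were higher and 4 lower. Of 12 BCL2 family and caspase genes other than Bax and Bbc3, 3 were higher and 2 lower, and of 14 partners of p21, 2 were higher and 7 lower, with Ccnd1 (cyclin D1) at 0.30 ± 0.04 and Cdk4 at -0.22 ± 0.03. At 0 min of the short course, where 1353 of 18009 genes passed in this contrast, the cell cycle and growth targets did not lean 1 way. There 2 were higher and 2 lower, with a median of -0.01. Of 10 death and receptor targets tested there, 1 was higher and 2 were lower.

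In WT transgene against WT control cells at 0 min of the long course, 1 of the 10 cell cycle and growth targets was higher and 6 were lower (Btg2 -0.25 ± 0.05, Pml -0.24 ± 0.04), and 1 of 11 death and receptor targets was higher and 3 were lower (Eda2r -0.43 ± 0.05). Of 14 partners of p21, 6 were higher and 1 was lower, with Ccnd1 at 0.30 ± 0.04 again the value of smallest adjusted p. Of the 11 repair and metabolism targets 3 were higher and 1 lower, and the 12 BCL2 family and caspase genes had a median of 0.00. During overexpression, where 9.79% of all genes passed, 2 of the cell cycle and growth targets rose, Btg2 by 0.31 ± 0.07 and Pml by 0.24 ± 0.06, and none fell, while Ccnd1 fell by 0.46 on the log2 scale, and Trp53 rose by 0.17 ± 0.05. During rescue 4 of these 10 targets fell, among them Sfn, which encodes 14-3-3 sigma (-0.43 ± 0.08), and Ccng2 (-0.43 ± 0.13), and none rose, where 11.5% of all genes passed. Trp53 passed the joint test, with -0.11 ± 0.05 at 720 min as its largest value, but 4 of 12 later libraries lay on that side. The difference of the responses passed for 4 of these 10 targets, all lower for rescue, where 2.64% of all genes tested were lower. Sfn stood at -0.64 ± 0.11 and Pml at -0.34 ± 0.08. In the short course Pml was the only gene of these lists to pass for the rescue response (-0.21 ± 0.06), where 1.08% of all genes fell.

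As a description, the members did not share a single profile. Over the 20 group means of the long course, log2 CPM of Cdkn1a and Phlda3 had a Pearson r of 0.928, but -0.168 over the 48 group means of the short course. Mdm2 and Plk2 moved together in both (0.880 and 0.725), and Ccng1 ran against Bax in both (-0.519 and -0.408). These points share libraries, lines and scaling. Trp53 itself had an r of -0.185 (long) and -0.078 (short) with the mean of the members. The genes most like that mean in the long course were Slc10a6 (0.906), Rnf169 (0.890), Ctf2 (0.883), Tie1 (0.881) and Suv39h1 (0.881), whose values in the short course were 0.086, 0.233, 0.005, -0.212 and -0.215.

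The libraries do not mark strand. An annotated gene of the opposite strand, AC167363.2, overlaps Cdkn1a and averaged 3.04 TPM, and Gm45808 overlaps Bax on its strand and averaged 0.969 TPM, so reads of these pairs could be shared.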

How the data were processed

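Expected counts and TPM per gene were deposited by the authors for 156 libraries. Salmon 1.5.2 and mm10 are named per the submitters' processing notes, and per the labels' protocols poly(A) RNA was prepared by a TruSeq kit of a kind that does not mark strand. Expected counts were rounded. In R 4.3.3 with edgeR 4.0.16, each course was fitted whole with its quasi-likelihood test, TMM scaling and filterByExpr (minimum count 10, minimum total 15), with 1 coefficient per line and time, or a spline of 3 df per line for responses and changes in the short course. p-values were adjusted by Benjamini-Hochberg over all genes tested at 0.05, and standard errors were derived from the fold change and its F statistic. The fits were tested on simulated data. Alternatives were DESeq2 1.42.0, its size factors, no filter, the replicate block, limma 3.58.1 on log2(TPM + 1), left-out replicates and other model forms. All 10 members are named; of the 6 lists (p53 regulators, targets in cell cycle and growth, in death and receptors, in DNA repair and metabolism, BCL2 family and caspases, partners of p21), at most 4 genes that passed, by adjusted p, and Trp53, Mdm4 and Ppm1d. The members and lists were chosen with earlier results of these data known.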

Additional observations from a re-analysis of the deposited data

Results flagged for a closer look

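For 3 of the 10 genes the response to the transgene differed between the KO and the WT background by a test of the difference itself, with rescue minus overexpression in each value. Plk2 stood at -0.54 (5760 min), Cdkn1a at -0.54 (1440 min) and Mdm2 at -0.29 (2880 min), each by edgeR over all genes tested. For each gene the WT transgene line was below its control at 0 min, and its part in these values was not tested.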

How the results depend on the processing

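Of the 101 calls of members over all comparisons, DESeq2 and the replicate block each kept 101 with their direction, and DESeq2's size factors kept 100. Without the filter 94 were kept, and limma on log2(TPM + 1) kept 62. The replicate numbers did not pair the samples: every same-numbered correlation was over 0.1 in 0 of 190 pairs of groups in the long course and in 26 of 1128 in the short course. With the replicate block 2 members passed between KO transgene and KO control cells at 0 min of the long course, against 1 without it, and no other count moved by over 1.5 times.

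Without the filter, 2 members passed for KO transgene against KO control cells at 0 min of the long course and 5 at 1440 min, 5 for rescue minus overexpression, and in the short course 1 for KO transgene against KO control cells at 0 min, 2 for rescue, 1 for overexpression and 1 for their difference. With limma on log2(TPM + 1), long-course counts were 0 for KO transgene against KO control cells at 0 min, 5 at 1440 min and 0 at 5760 min, 2 for WT transgene against WT control cells at 5760 min, 4 for KO against WT control cells after 0 min and 1 for rescue, and short-course counts were 4 for WT transgene against WT control cells after 0 min and 0 for rescue. The line-by-spline fit gave 4 members for KO against WT control cells and 1 for WT transgene against WT control cells at 0 min of the short course. With 1 coefficient per line and time, 0 passed for rescue, 2 for the change in KO and 1 for that in WT control cells in the short course, and with only the lines compared 1 for KO against WT control cells at 0 min, 0 for rescue and 2 for the change in KO control cells.

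With single replicates left out, the count in the long course was 0 each time for KO transgene against KO control cells at 0 min, and ran from 3 to 4 for WT transgene against WT control cells at 0 min, from 1 to 2 for rescue and from 3 to 6 for overexpression. KO transgene against KO control cells ran from 1 to 2 at 720 min, from 1 to 2 at 2880 min and from 0 to 3 at 5760 min. In the short course it ran from 3 to 4 for KO against WT control cells and from 0 to 2 for WT transgene against WT control cells at 0 min, from 0 to 1 for rescue, from 1 to 3 for the change in KO control cells and from 1 to 5 for that in WT control cells.

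Signs turned on the log2(TPM + 1) scale for the changes of Mdm2 (-0.048), Trp53inp1 (-0.17), Zmat3 (-0.19) and Bax (0.12) in KO control cells and of Ccng1 (-0.30) and Trp53inp1 (-0.30) in WT control cells of the long course, for the rescue response of Trp53inp1 (0.13), and for Cdkn1a (-0.018) and Aen (-0.049) between KO and WT control cells of the short course. With replicates left out, values of both signs were found for the rescue response of Mdm2 (-0.11 to 0.12), the overexpression response of Ccng1 (-0.12 to 0.14) and the change of Ccng1 in WT control cells (-0.11 to 0.13) in the long course. In the short course they were found for the changes of Ccng1 (-0.017 to 0.17) and Phlda3 (-0.049 to 0.13) in WT control cells, and between KO and WT control cells for Trp53inp1 at 0 min (-0.21 to 0.18) and for Aen (-0.0004 to 0.071) and Zmat3 (-0.16 to 0.082) later. Ccng1 in WT control cells was -0.11 with only the lines compared, and Mdm2 in short rescue 0.0011 with 1 coefficient per line and time. Leaving out replicate 2 of the transgene lines at 720 and 1440 min, chosen after seeing the data, gave 0.16 for Cdkn1a in rescue. Values of turned sign that passed by themselves were those of Trp53inp1 in all 3 long-course results, Zmat3, Ccng1 in WT control cells and Aen on the log2(TPM + 1) scale, the lowest values of Ccng1 in overexpression and in WT control cells of both courses and of Trp53inp1, the highest of Zmat3, and Cdkn1a in rescue. So did the -0.11 of Ccng1 in WT control cells of the long course with only the lines compared (edgeR adjusted p = 3.21e-06). The cause of these shifts was not tested. With 2 replicates per group the short course limits what could be detected at single times, and a difference between lines may be one between clones.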
